A study of Mus musculus with 30 samples.

Results

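The genes described here encode the mitochondrial respiratory chain and the ATP synthase, in both of the genomes that carry them. Protein-coding genes were taken by symbol: those of complex I (Nduf), complex II (Sdha to Sdhd), complex III (Uqcr), complex IV (Cox4 to Cox8), complex V (Atp5) and the protein-coding genes of mitochondrial DNA (mt-). The rule found 107 of the 21980 named protein-coding genes in the QuantSeq table, 94 of them nuclear and 13 mt-. The nuclear genes comprise 37 of complex I, 8 assembly factors of complex I, 4 of complex II, 8 of complex III, 18 of complex IV, 18 of complex V and Cox7a2l, a factor that joins complexes into supercomplexes. The mt- genes comprise 7 of complex I, 1 of complex III, 3 of complex IV and 2 of complex V.

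The respiratory chain is built from proteins of both genomes. Complex II is wholly nuclear, while complexes I, III, IV and V each need subunits of both genomes. Mitochondrial DNA is transcribed from both strands as long precursors that are cut into mRNAs. Its transcripts thus share their synthesis, and their levels also depend on how long each lasts. The genes mt-Atp8 and mt-Atp6 overlap on the same strand, as do mt-Nd4l and mt-Nd4, so their rows need not be separate mRNAs. Nuclear subunit genes are transcribed one by one, many through the activators NRF1 and GABP. In T cells, activation is known to raise mitochondrial mass, and respiration by complexes I to IV drives the proton gradient that complex V uses to make ATP.

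CD4 T cells were sorted from spleens of C57BL/6 mice 8 weeks old and gave 30 libraries. QuantSeq, which reads the 3' ends of transcripts, covered 22 libraries in 9 groups, all from mice with the OTII T cell receptor transgene. TFH2 cells came from IL-4BacTg x OTII Tg mice and were sorted as CD4+CD45.2+ PD1+ through CXCR5lo, CXCR5int and CXCR5hi gates (n = 2 each). TFH cells came from OTII Tg mice through the same gates (n = 3, 2 and 3 from lo to hi). Bcl6KO cells were CD4+hCD2+ cells of Bcl6f/fCd4cre x OTII Tg mice (n = 2), in which Cre driven by Cd4 removes the transcription factor Bcl6 from T cells. Il4KO cells were CD4+ cells of Il4-/- x OTII Tg mice (n = 2). TH2 cells were CD4+hCD2+ cells of IL-4BacTg x OTII Tg mice (n = 4), so hCD2 defined them, and what hCD2 reports is not stated here. The genotype label of these TH2 libraries reads "OTII Tg IL-4BacTg x OTII Tg", and its reading as IL-4BacTg x OTII Tg is uncertain. Conventional RNA-seq covered TFH cells of OTII Tg mice in the CXCR5hi gate (n = 2), TH2 cells of IL-4BacTg mice sorted as CD4+hCD2+ (n = 2) and naive CD4+CD62L+CD44-CD25- cells of wild type mice (n = 2). It also held 1 library labelled TFH2 (CXCR5hi) and 1 library labelled TH2, both of IL-4BacTg x OTII Tg mice. Cell type, genotype and gate therefore change together in most comparisons.

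QuantSeq libraries held 1.83 to 4.44 M counts (median 2.95 M, M being 10 to the power 6) and RNA-seq libraries 36.05 to 107.4 M (median 67.62 M). Levels are counts per M counts (CPM) and show what share of a library a gene takes, so fewer mitochondria per cell and less RNA per mitochondrion cannot be told apart. All 7 CD4 T cell markers (among them Cd3e, Cd4 and Lck) were detected in each QuantSeq group. They summed to 4110 to 5690 CPM in TFH2 and TFH libraries and to 2560 to 3790 CPM in TH2, Bcl6KO and Il4KO libraries. In the replicated RNA-seq groups these CD4 T cell markers summed to 3339 to 3386 CPM in naive, 10840 to 11180 CPM in TFH and 14060 to 19810 CPM in TH2 libraries. The summed level of 9 myeloid markers was 298 to 1380 CPM in TFH2 libraries, 97.8 to 208 CPM in TFH libraries and 39.5 to 94.7 CPM in TH2 libraries. Of the myeloid markers, Itgam was at 0 in the TFH2 lo and int gates. The 5 erythroid markers, hemoglobin genes and Alas2, reached 413 to 1590 CPM in TFH2 libraries, 39.5 to 340 CPM in TFH libraries and at most 39.6 CPM in TH2 libraries, with Alas2 at 0. The 6 B cell markers summed to 180 to 837 CPM in TFH2 libraries, 140 to 259 CPM in TFH libraries and 60.6 to 147 CPM in TH2 libraries, with Ms4a1 at 0 in every TFH2 gate. The 5 TFH markers (Cxcr5, Pdcd1, Bcl6, Il21 and Tox2) summed to 207 CPM or more in all TFH2 and TFH libraries and to at most 13.3 CPM in TH2 libraries. In RNA-seq they summed to 25.5 CPM in the library labelled TFH2 and to 622 CPM in the lone library labelled TH2, so these markers go against those 2 labels. The female-specific transcript Xist was present in all TFH and Bcl6KO libraries (173.6 to 538.3 CPM) and in TH2 replicates 1 and 2 (338.9 and 383.3 CPM). The Y-linked Ddx3y was the higher of the pair in all TFH2 and Il4KO libraries and in TH2 replicates 3 and 4 (100.5 and 28.7 CPM). Sex and TH2 replicate therefore move with several comparisons below. In the sample numbers of the titles, TH2 replicates 1 and 2 come directly before the TFH2 libraries and TH2 replicates 3 and 4 stand among the Bcl6KO and Il4KO libraries, and the labels do not say what the numbers stand for. Of the deleted genes, Bcl6 had 21 and 54 counts in Bcl6KO libraries and 1, 39, 6 and 11 in TH2 libraries, and Il4 had 0 and 3 counts in Il4KO libraries and 0, 0, 40 and 0 in TH2 libraries. These 3' counts did not separate the knockouts from TH2 cells, and which exons were deleted is not given in the labels.

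Of the mitochondrial genes, 9 of 13 passed the filter on low counts in QuantSeq, all 7 of complex I together with mt-Cytb and mt-Co1. The 4 that did not pass were mt-Co2, mt-Co3 and mt-Atp8, each with 0 counts in 22 libraries, and mt-Atp6 with 73. They encode core subunits of cytochrome oxidase beside mt-Co1 and the 2 mitochondrial subunits of ATP synthase. Stretches of chromosome 1 carry near-identical copies of mt-Co2, mt-Co3 and mt-Atp6, annotated as pseudogenes (GRCm38, minus strand, 24611535 to 24616197). The rows of those copies held the counts: 439555 for Gm28661, the copy of mt-Co2, 434490 for Gm28437, the copy of mt-Co3, and 672685 for Gm10925, the copy of mt-Atp6. Each is 100% identical to its mt- gene over 681, 783 and 678 bases in turn. An example is shown because the loci share every letter there. It is the last 60 aligned bases, 619 to 678 of mt-Atp6, on chromosome M (plus strand, 8545 to 8604) and in Gm10925 on chromosome 1 (minus strand, 24613974 to 24614033).
mt-Atp6: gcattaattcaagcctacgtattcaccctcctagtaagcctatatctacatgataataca
Gm10925: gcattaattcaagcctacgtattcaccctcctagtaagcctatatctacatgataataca

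The same place on chromosome 1 split the reads of 2 further genes. For mt-Co1, which encodes the catalytic subunit of cytochrome oxidase, 95622 counts stood on the mt- row and 958110 on Gm29216, which is 99.793% identical to the last 483 bases of the gene. For mt-Nd3, a membrane subunit of complex I, the mt- row held 54523 counts and Gm28438 held 51491, with 1 difference in 345 bases. That difference, T3C counted from the first base of mt-Nd3, is in capitals in the first 60 bases of each, on chromosome M (plus strand, 9459 to 9518) and chromosome 1 (minus strand, 24613060 to 24613119).
mt-Nd3: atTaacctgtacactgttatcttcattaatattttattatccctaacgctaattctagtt
Gm28438: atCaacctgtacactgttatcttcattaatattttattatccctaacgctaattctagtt

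For the other complex I genes the mt- row kept nearly all counts. The row of mt-Nd4 held 703152 counts and that of its copy Gm28439, which covers the first 876 bases and not the 3' end, held 49. The row of mt-Nd2 held 1041450 counts against 57658 on a chromosome 2 copy of 96.667% identity. Chromosome 2 copies also held 68923 counts for mt-Co1 (Gm13340, 97.605% identity) and 76093 for mt-Co2 (Gm13341, 95.906% identity). Copies under 99% identity were not added to the mt- rows in the fits with copies. No copy of at least 95% identity was found among annotated transcripts for mt-Nd1, mt-Nd6, mt-Cytb or mt-Atp8. Sequence between annotated transcripts was not searched. Over the 22 libraries, copies of at least 99% identity held 44.5 ± 4.02% (SD, n = 22) of all counts on these mitochondrial sequences, with a range of 38.7 to 52.0%. A level of mt-Co1 or mt-Nd3 from its own row is therefore a part of what was sequenced, and complex IV and V have no usable mt- row of their own beyond mt-Co1.

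**Figure D1:**
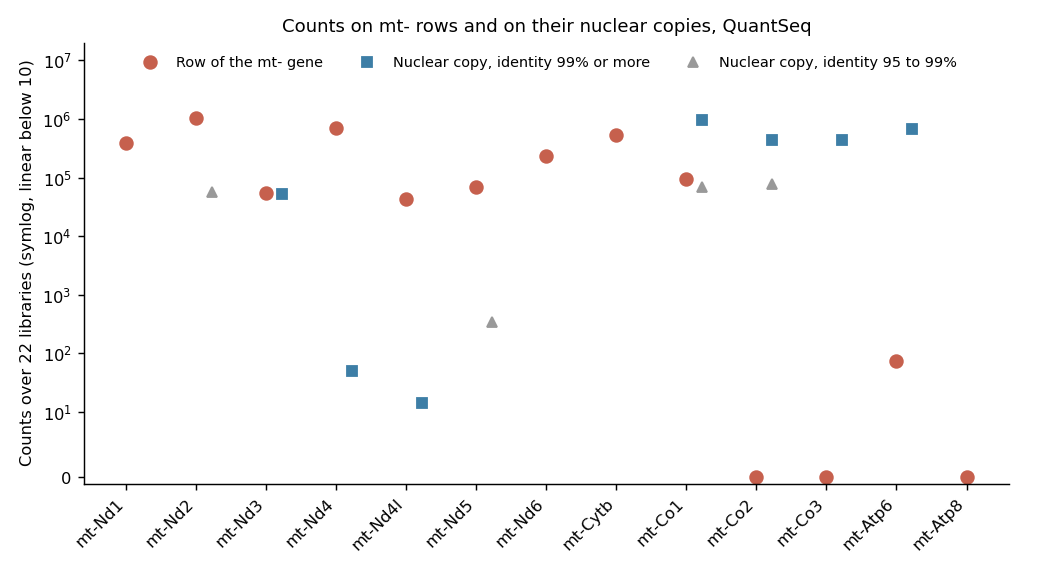
Counts summed over 22 QuantSeq libraries (vertical axis, logarithmic above 10 and linear below) on the row of each mt- gene and on the rows of its nuclear copies. The rows of mt-Co2, mt-Co3 and mt-Atp8 lie at 0, and the chromosome 1 copies of mt-Co1, mt-Co2, mt-Co3 and mt-Atp6 hold between 434490 and 958110 counts each.

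The 13 mt- rows together took 4.74 ± 0.708% of a QuantSeq library and the 94 nuclear genes 1.54 ± 0.201% (SD, n = 22). Nuclear genes took 1.52 to 2.09% of TFH2 libraries, 1.42 to 1.83% of TFH libraries, 1.34 and 1.44% of Bcl6KO libraries, 1.28 and 1.40% of Il4KO libraries and 1.25 to 1.58% of TH2 libraries. The mt- rows took 4.44 to 6.04% of TFH2 libraries, 3.84 to 5.40% of TFH libraries, 4.56 and 4.85% of Bcl6KO libraries and 5.06 and 5.64% of Il4KO libraries. In TH2 libraries they took 3.17, 3.21, 4.87 and 4.92%. The TH2 group thus fell into a low pair and a high pair, and the low pair is the one with Xist.

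The ratio of the mt- sum to the nuclear sum described the balance of the genomes in a library. It averaged 2.95 ± 0.42 in TFH2 libraries (SD, n = 6), 3.03 ± 0.553 in TFH libraries (n = 8), 3.39 ± 0.0339 in Bcl6KO libraries (n = 2), 4.0 ± 0.557 in Il4KO libraries (n = 2) and 2.98 ± 1.03 in TH2 libraries (n = 4). In TH2 replicates 1 to 4 it was 2.14, 2.04, 3.79 and 3.93. The spread within TH2 covered the values of TFH2, TFH and Bcl6KO libraries, and 1 of the 2 Il4KO libraries lay above it, at 4.39. Across CXCR5lo, CXCR5int and CXCR5hi the mean ratio was 2.69, 3.05 and 3.11 in TFH2 cells and 3.11, 2.95 and 3.01 in TFH cells, with single libraries at 2.45 to 3.79. No test was made on these sums, which are scores over chosen genes.

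**Figure D2:**
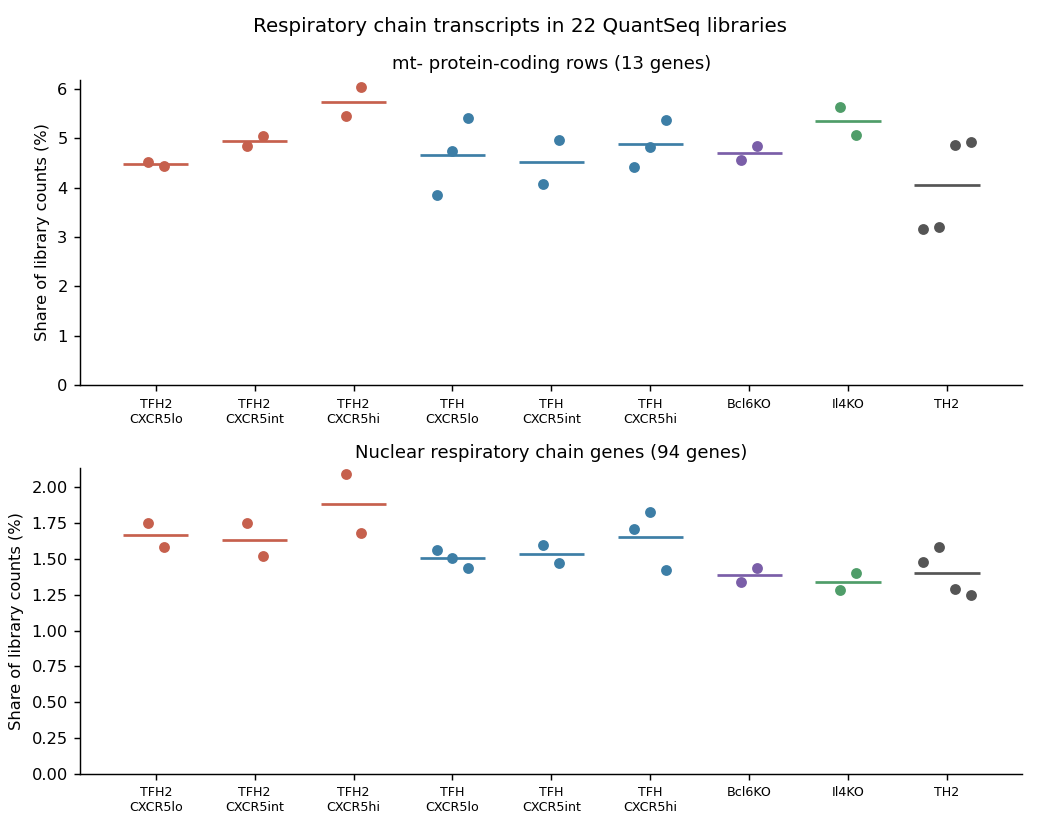
Share of library counts (percent) taken by the mt- rows (upper panel) and the nuclear respiratory chain genes (lower panel), with a point for each QuantSeq library and a line at each group mean. TH2 libraries form a pair at 3.17 and 3.21% and a pair at 4.87 and 4.92% for the mt- rows.

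Among the mt- rows, mt-Nd2, mt-Nd4 and mt-Cytb held the most counts, with 1041450, 703152 and 522250 over all libraries. The chromosome 1 copies of mt-Co1 (958110 counts) and mt-Atp6 (672685 counts) held more than the mt-Cytb row, so this order is one of rows and not of transcripts. Of the nuclear genes, the highest mean levels per complex were 420 ± 91.1 CPM for Ndufa6 in complex I, 168 ± 61.2 CPM for Sdhb in complex II, 478 ± 97.3 CPM for Uqcrh in complex III, 831 ± 226 CPM for Cox8a in complex IV and 849 ± 278 CPM for Atp5g3 in complex V (SD, n = 22). QuantSeq counts 1 end per transcript, so these levels do not depend on length as full-length counts do. Of 94 nuclear genes, 86 passed the filter in QuantSeq. Those that did not were Sdhd (50 counts in all), Cox6a2 (22 counts) and Ndufa4l2, Cox4i2, Cox7b2, Cox8b, Cox8c and a second gene entry of Atp5o, all at 0. Cox4i2, Cox6a2, Cox7b2, Cox8b and Cox8c are isoforms known from lung, muscle or testis. In RNA-seq they also stayed at or under 13 counts over 8 libraries, while Sdhd was well detected there.

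Nuclear copies touch nuclear members too. Atp5g2, 1 of 3 genes for the ring subunit c of ATP synthase, held 183 counts against 16406 on its copy Gm10175. Ndufs5 held 506 counts against 3161 on BC002163, and Ndufs3 held 1414 against 1797 on Gm12251. Of the 94 nuclear genes, 22 have a copy of at least 95% identity to their last 300 bases, so their levels are uncertain to that degree.

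TFH2 cells were compared with TH2 cells, of the same IL-4BacTg x OTII Tg genotype if the unclear TH2 label is read that way. Of the 9 mt- genes tested, 2 were higher and 1 was lower in TFH2 cells, and of 86 nuclear genes 2 were higher and none lower (2 as well with RLE size factors, and 6 higher and 1 lower with DESeq2). Of all 14380 genes tested, 2.03% were called higher and 2.32% lower. The median log2 ratio was 0.25 over the nuclear genes and 0.13 over the mt- genes, against -0.13 over all genes. An unadjusted p under 0.05 was found for 17 nuclear and 4 mt- genes, beside 18.5% of all genes. The mt- median was -0.02 without the CXCR5hi gate and 0.03 against TH2 replicates 3 and 4 alone.

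The mRNA of mt-Nd4, a proton-pumping subunit of complex I, stood at 12830 and 12250 CPM in the lo gate, 12570 and 10320 in the int gate and 14520 and 16210 in the hi gate of TFH2 cells, against 6491, 5880, 10700 and 9673 CPM in TH2 cells. The log2 ratio was 0.67 ± 0.14 (SE, edgeR, adjusted p = 0.00138). TFH2 libraries ran higher than TH2 replicates 1 and 2 throughout, and the lowest TFH2 library lay just under the highest TH2 library.

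The transcript of mt-Cytb, the heme-carrying core of complex III, averaged 8660 ± 1750 CPM in TFH2 cells (SD, n = 6) and 6180 ± 1140 CPM in TH2 cells (SD, n = 4), a log2 ratio of 0.47 ± 0.12 (adjusted p = 0.00939). TFH2 libraries stood between 6526 and 11190 CPM and TH2 libraries at 5195, 5198, 7018 and 7318 CPM, with overlap. The mt-Co1 row went the other way, at 1110 ± 218 CPM in TFH2 cells and 1730 ± 261 CPM in TH2 cells (log2 ratio -0.66 ± 0.17, adjusted p = 0.00539). When the counts of its chromosome 1 copy were added, mt-Co1 no longer differed by the test (log2 ratio -0.11 ± 0.12, adjusted p = 0.74), and the copy's own row had a log2 ratio of -0.03. In the same fit mt-Nd4 (0.65, adjusted p = 0.000863) and mt-Cytb (0.45, adjusted p = 0.0155) were higher, as without the copies.

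These calls depended on which TH2 libraries were used, and the Ddx3y pair is the one of higher mt- share. Against TH2 replicates 3 and 4 alone, which share Ddx3y with TFH2 cells, mt-Nd4 had a log2 ratio of 0.37 (adjusted p = 0.111) and mt-Cytb 0.27 (adjusted p = 0.374), and neither was called. In that fit the row of mt-Nd6, the 1 mt- member on the other strand of mitochondrial DNA, was lower in TFH2 cells, at -0.54 ± 0.17 (adjusted p = 0.0325). This gene overlaps the end of mt-Nd5, and whether counting used strand is not stated, so which strand its reads came from is uncertain. In QuantSeq mt-Nd6 averaged 3436 CPM in TFH2 cells, against 1066 CPM for mt-Nd5. In the RNA-seq libraries with mt- counts it was the lower of the pair. Without the CXCR5hi gate, where myeloid and erythroid markers were highest, mt-Nd4 (0.55, adjusted p = 0.03) kept its call and mt-Cytb (0.31, adjusted p = 0.279) lost it. With single libraries left out, mt-Nd4 and mt-Co1 were called each time, and mt-Cytb was not called without TH2 replicate 1 (0.40, adjusted p = 0.0761) or without TH2 replicate 2 (0.41, adjusted p = 0.0695). Against TH2 replicates 3 and 4 alone mt-Co1 was not called either (-0.55, adjusted p = 0.155). Myeloid, erythroid and B cell markers were higher in every TFH2 library than in any TH2 library, while the 6 naive markers summed to 476 to 915 CPM in TFH2 libraries and 1040 to 1330 CPM in TH2 libraries. Their part in these results was not tested beyond leaving out that gate.

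**Figure D3:**
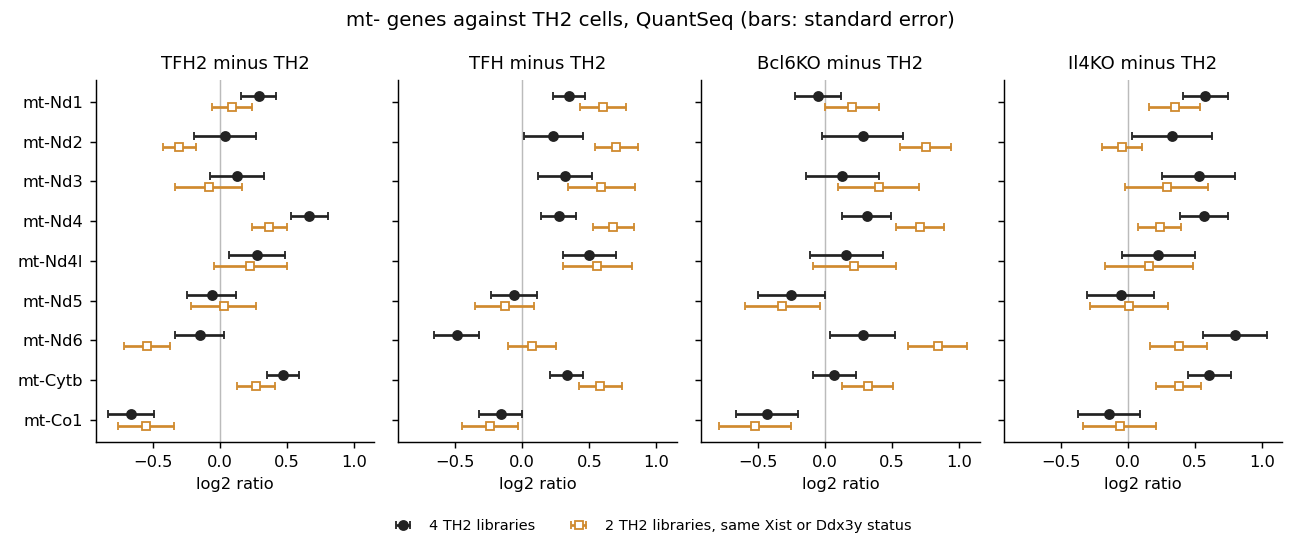
Log2 ratios ± standard error of the 9 tested mt- genes against TH2 cells, with all 4 TH2 libraries (filled circles) and with the 2 TH2 libraries of matching Xist or Ddx3y status (open squares). In TFH2 minus TH2, mt-Nd4 is at 0.67 with 4 TH2 libraries and at 0.37 with 2.

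The nuclear genes called higher in TFH2 cells both belong to ATP synthase. Complex V as a whole did not stand out, since its 17 tested nuclear genes had a median log2 ratio of 0.03, with 11 positive and 6 negative. The median was 0.3 over nuclear genes of complex I. Atp5g3 (chromosome 2, minus strand, 73908447 to 73911326 in GRCm38) encodes subunit c of the membrane ring that turns as protons pass. It stood at 1227 and 681.8 CPM in the lo gate, 1042 and 874.4 in the int gate and 1212 and 1321 in the hi gate of TFH2 cells, against 773.4, 689.7, 495.6 and 412 CPM in TH2 cells. Its log2 ratio was 0.83 ± 0.20 (adjusted p = 0.00394), with 5 of 6 TFH2 libraries above every TH2 library. Atp5k (chromosome 5, minus strand, 108433244 to 108434448), subunit e, which helps pair the enzyme into dimers, averaged 630 ± 87.2 CPM in TFH2 cells and 383 ± 109 CPM in TH2 cells (log2 ratio 0.71 ± 0.22, adjusted p = 0.0373). Both lost their call without the CXCR5hi gate (Atp5g3 0.68, adjusted p = 0.0823, and Atp5k 0.76, adjusted p = 0.0605). Against TH2 replicates 3 and 4 alone, their lower pair of TH2 libraries, both were called, Atp5g3 at 1.23 (adjusted p = 0.000437) and Atp5k at 1.08 (adjusted p = 0.0105). With single libraries left out, Atp5g3 was called each time. Atp5k was not called without TH2 replicate 1, 3 or 4, without replicate 1 of the TFH2 hi or int gate, or without replicate 2 of the TFH2 lo gate (0.60 to 0.74, adjusted p up to 0.153). Atpif1, the inhibitor that blocks ATP hydrolysis by complex V and lies outside the symbol rule, averaged 236 ± 64.8 CPM in TFH2 cells, against 74.3 ± 19.7 CPM in TH2 cells (log2 ratio 1.65 ± 0.38, adjusted p = 0.00162). Against TFH cells, at 90.8 ± 41.0 CPM, its log2 ratio was 1.46 ± 0.30 (adjusted p = 0.00189). The Atpif1 values are given for the main fit only. Erythroid markers were also higher in every TFH2 library (413 to 1590 CPM) than in any TFH library (39.5 to 340 CPM) or TH2 library (at most 39.6 CPM). Their part in the Atpif1 result was not tested.

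TFH cells were compared with the same TH2 libraries. They come from OTII Tg mice without IL-4BacTg, so genotype differs as well. Of 86 nuclear genes, 3 were higher and none lower in TFH cells, beside 2.42% of all genes higher and 2.75% lower. At an unadjusted p under 0.05 there were 9, beside 19.0% of all genes. Atp5k averaged 682 ± 192 CPM in TFH cells (SD, n = 8) and 383 ± 109 CPM in TH2 cells (SD, n = 4), a log2 ratio of 0.81 ± 0.21 (adjusted p = 0.00765). Atp5g3 averaged 946 ± 210 CPM in TFH cells and 593 ± 167 CPM in TH2 cells (0.64 ± 0.19, adjusted p = 0.0309). Uqcr10 (chromosome 11, minus strand, 4701973 to 4704342), a small subunit of complex III, averaged 279 ± 68.9 CPM in TFH cells and 143 ± 60.1 CPM in TH2 cells (0.95 ± 0.28, adjusted p = 0.0255). The groups overlapped for all 3 genes, and TH2 replicates 3 and 4 were the lowest libraries for each of them. Against TH2 replicates 1 and 2 alone no nuclear gene was called (Atp5k 0.53, Atp5g3 0.33 and Uqcr10 0.55), and 0 were without TH2 replicate 3 or without TH2 replicate 4. Without TFH int replicate 1 only Atp5k was called (Uqcr10 0.85, adjusted p = 0.108, and Atp5g3 0.61, adjusted p = 0.0522). Atp5g3 was also not called without replicate 1 or 2 of the TFH lo gate or replicate 2 of the TFH hi gate (adjusted p up to 0.0611). The comparisons of TFH and of TFH2 cells share their TH2 libraries, so the recurrence of Atp5g3 and Atp5k in both is not an independent repeat.

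No mt- gene was called between TFH and TH2 cells with 4 TH2 libraries, and 5 of 9 had an unadjusted p under 0.05, a threshold that 19.0% of all genes passed (DESeq2 also called none). The nearest were mt-Nd1 (log2 ratio 0.35 ± 0.12, adjusted p = 0.086), mt-Cytb (0.33 ± 0.12, adjusted p = 0.0907) and mt-Nd6 (-0.49 ± 0.17, adjusted p = 0.0952). Against TH2 replicates 1 and 2 alone, which carry Xist like the TFH libraries, 4 mt- genes were higher in TFH cells. These were mt-Nd4 (0.68 ± 0.15, adjusted p = 0.000441), mt-Nd2 (0.70 ± 0.16, adjusted p = 0.00175), mt-Cytb (0.58 ± 0.16, adjusted p = 0.00954) and mt-Nd1 (0.60 ± 0.17, adjusted p = 0.013). Levels of mt-Nd2 spanned 11120 to 22340 CPM in TFH libraries, against 9348, 10860, 17230 and 18460 CPM in TH2 replicates 1 to 4. The result for mt- genes in TFH cells therefore turned on which pair of TH2 libraries was used, and the Xist pair is the one of lower mt- share. With single libraries left out, 1 mt- gene was called without TH2 replicate 1, 2 or 4 or without either TFH int library, and 2 without TH2 replicate 3.

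The difference within TH2 was not the same for every mt- gene. From replicates 1 to 4, mt-Nd6 stood at 2794, 2341, 5310 and 4746 CPM and mt-Nd1 at 3903, 4083, 5714 and 5304 CPM, with replicates 3 and 4 higher in both. The levels of mt-Nd5, a large proton-pumping subunit, were 1157, 1163, 1051 and 1037 CPM and did not split that way. For mt-Co1 they were 1803, 1877, 1902 and 1346 CPM. Replicates 3 and 4 were higher in 6 of the 9 tested rows, namely mt-Nd1, mt-Nd2, mt-Nd3, mt-Nd4, mt-Nd6 and mt-Cytb.

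The mitochondrial ribosomal RNA mt-Rnr2 is no member but comes from the same genome. It was chosen after its values were seen. It averaged 33900 ± 5870 CPM in TFH cells and 22600 ± 2900 CPM in TH2 cells (log2 ratio 0.60 ± 0.11, adjusted p = 0.000297). Its log2 ratio between TFH2 and TH2 cells was 0.04 ± 0.11 (adjusted p = 0.989), and between TFH2 and TFH cells -0.55 ± 0.10 (adjusted p = 0.000812). The other ribosomal RNA, mt-Rnr1, averaged 6620 ± 2610 CPM in TFH2 cells, 6990 ± 2000 CPM in TFH cells and 6450 ± 1200 CPM in TH2 cells, and was called in none of these comparisons.

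TFH2 and TFH cells, which share gates, were next compared with TH2 set aside. They differ in the IL-4BacTg transgene and, by Xist and Ddx3y, in sex. Every TFH2 library also exceeded every TFH library in summed myeloid markers (298 to 1380 against 97.8 to 208 CPM). The same held for erythroid markers (413 to 1590 against 39.5 to 340 CPM). Transgene, sex and these other transcripts cannot be told apart here. Of 86 nuclear genes 1 was higher and none lower, beside 0.327% of all genes higher and 0.32% lower. Ndufa5 (chromosome 6, minus strand, 24518666 to 24528013), a subunit of the peripheral arm of complex I, averaged 248 ± 80.6 CPM in TFH2 cells and 115 ± 56.0 CPM in TFH cells (log2 ratio 1.14 ± 0.29, adjusted p = 0.0335). TFH2 libraries spanned 185.5 to 363.7 CPM and TFH libraries 61.25 to 190.8 CPM, so the groups overlapped in their outer libraries. Without the CXCR5hi gate its log2 ratio was 1.19 ± 0.37, with an adjusted p of 0.227. It was also not called with DESeq2, nor without replicate 1 of the TFH2 hi, TFH2 int, TFH int or TFH lo gate or replicate 2 of the TFH lo gate (log2 ratio 0.97 to 1.06). No mt- gene was called (1 by DESeq2). An unadjusted p under 0.05 was found for 4 nuclear and 3 mt- genes, beside 9.63% of all genes. The largest mt- differences were mt-Co1 (-0.50 ± 0.14, adjusted p = 0.0698) and mt-Nd4 (0.39 ± 0.12, adjusted p = 0.118). With the counts of its copy added, mt-Co1 was at 0.04 ± 0.10. With single libraries left out, 1 mt- gene was called without either TFH2 hi library, TFH2 int replicate 1, TFH2 lo replicate 2, TFH lo replicate 1 or TFH int replicate 2, and 2 were without TFH2 lo replicate 1 or TFH2 int replicate 2.

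**Figure D4:**
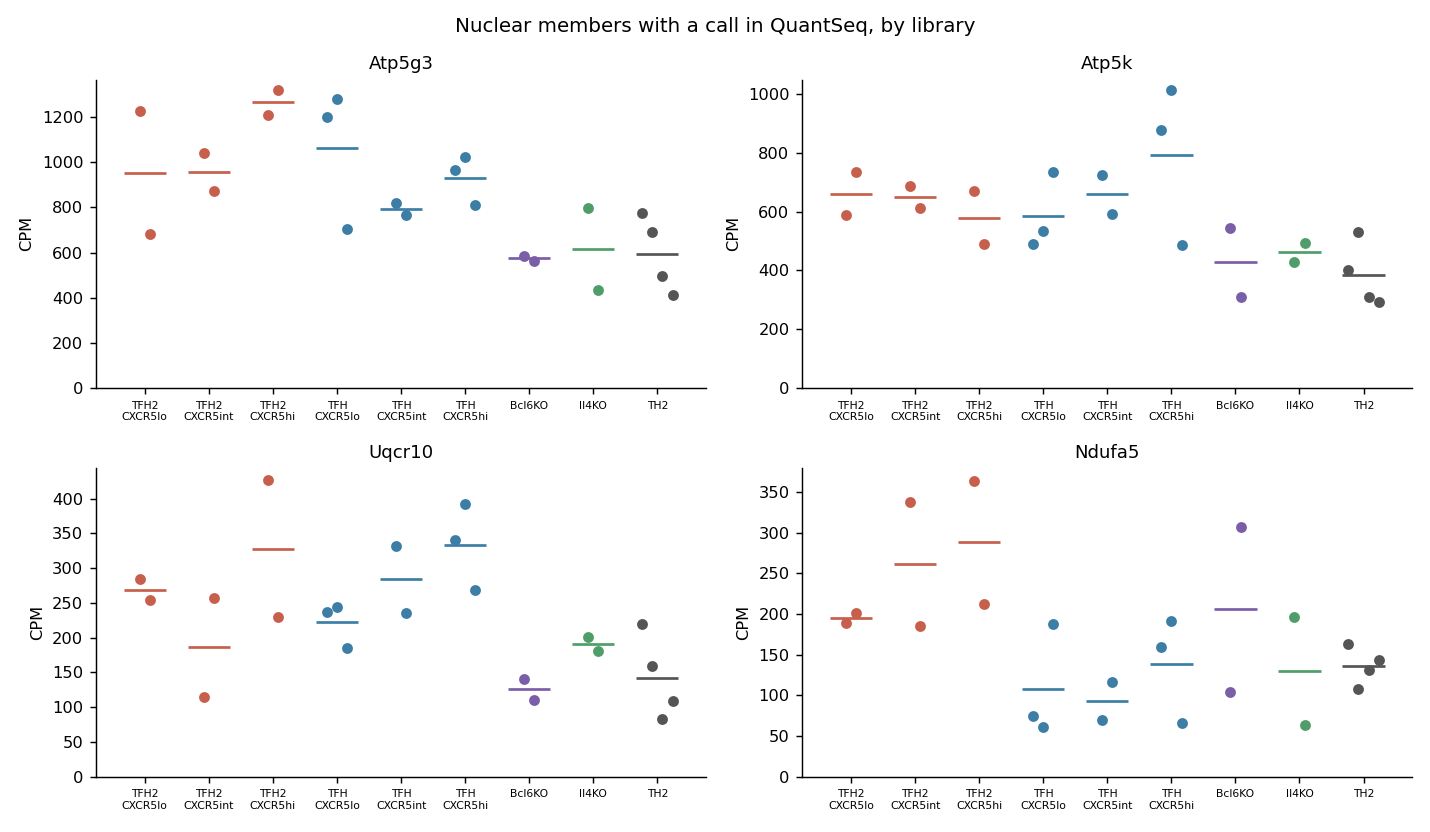
CPM of the 4 nuclear genes called in a QuantSeq comparison, with a point for each library and a line at each group mean. Atp5g3 lies between 681.8 and 1321 CPM in TFH2 libraries and between 412 and 773.4 CPM in TH2 libraries.

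CXCR5 gates were compared within each cell type. In TFH2 cells, all 9 mt- genes had a positive CXCR5hi minus CXCR5lo log2 ratio, with a median of 0.48 and a range of 0.08 to 0.76, and 4 had an unadjusted p under 0.05, beside 4.37% of all genes. None was called (0 by DESeq2 as well), and 0.153% of all genes were. The mt-Cytb mRNA averaged 10700 CPM in the hi gate and 7660 CPM in the lo gate (log2 ratio 0.48 ± 0.19), and mt-Nd4l, a small membrane subunit of complex I, 865 and 512 CPM in the same order (0.76 ± 0.32). Myeloid markers summed to 752 to 1380 CPM in the hi gate and 298 to 350 CPM in the lo gate, and their part in the result was not tested. In TFH cells 5 mt- genes had a positive and 4 a negative ratio (median 0.16), with none called (0 by DESeq2 as well) and 0.139% of all genes called. The test of whether the gate difference itself differed between TFH2 and TFH cells called no member, and 0.0139% of all genes, with 2 nuclear and 2 mt- genes at an unadjusted p under 0.05, beside 5.47% of all genes. Nuclear genes had medians of 0.21 in TFH2 and 0.06 in TFH cells, and none was called. In TFH2 cells 1 of them had an unadjusted p under 0.05 and in TFH cells 5, where 6.05% of all genes did.

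Bcl6KO cells were compared with TH2 cells, which share the CD4+hCD2+ gate. No nuclear and no mt- gene was called (0 by DESeq2 as well), beside 0.0209% of all genes, and 5 nuclear and 0 mt- genes had an unadjusted p under 0.05, beside 5.81% of all genes. The median log2 ratio was 0.03 over nuclear and 0.13 over mt- genes. The mt-Nd4 level was 10490 and 9826 CPM in Bcl6KO cells, between the 10700 and 9673 CPM of TH2 replicates 3 and 4. Against TH2 replicates 1 and 2 alone, which carry Xist as Bcl6KO cells do, mt-Nd4 (0.71, adjusted p = 0.0202), mt-Nd6 (0.84, adjusted p = 0.0378) and mt-Nd2 (0.75, adjusted p = 0.0398) were higher in Bcl6KO cells. These TH2 libraries are also the pair of lower mt- share, and the split was chosen after the data were seen. Sex and that lower level cannot be told apart here. In simulated data 16% of 4-fold changes and 0% of 2-fold changes between these groups were recovered, over genes drawn from those tested above a minimum mean count. The mt- rows hold far more counts than most genes, so these rates need not hold for them. For genes of ordinary level the absence of calls says little of smaller differences.

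Il4KO cells were sorted as CD4+ alone and TH2 cells as CD4+hCD2+, so the gate changes with the genotype. None of the members was called (0 by DESeq2 as well), beside 0.0695% of all genes, while 4 mt- and 1 nuclear gene had an unadjusted p under 0.05, beside 5.34% of all genes. The mt- genes had a median log2 ratio of 0.53, with 7 of 9 positive, and nuclear genes a median of 0.09. The mt-Nd6 level averaged 6600 ± 1690 CPM in Il4KO cells (SD, n = 2) and 3800 ± 1450 CPM in TH2 cells (SD, n = 4), a log2 ratio of 0.80 ± 0.24. For mt-Cytb the means were 9450 ± 2880 CPM in Il4KO cells and 6180 ± 1140 CPM in TH2 cells (0.61 ± 0.16, adjusted p = 0.15). Against TH2 replicates 3 and 4 alone none was called either, and mt-Nd6 was at 0.38, mt-Cytb at 0.38 and the mt- median at 0.24. With single libraries left out, mt- genes were called without TH2 replicate 3 (2 genes), without TH2 replicate 4 (1 gene) and without Il4KO replicate 2 (3 genes).

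RNA-seq compared the effector cells with naive cells, for nuclear genes only. The mt- rows were at 0 in the 6 libraries of the replicated groups, although the lone libraries labelled TFH2 and TH2 held 458256 and 645963 counts on them. In those 2 libraries mt-Co1 was the largest row (136557 and 180611 counts), and mt-Co2, at 0 throughout QuantSeq, held 61824 and 81631 counts. Replicates within a group varied little (biological coefficient of variation 0.0879, against 1.26 in QuantSeq), so most genes passed the test, and counts of calls are to be read against that background.

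In TH2 cells 74 of 88 tested nuclear genes were higher than in naive cells and 2 were lower, beside 33.9% of all 17028 genes higher and 32.0% lower. The median log2 ratio was 0.59, against 0.00 over all genes. By complex, 31 of 36 tested subunits of complex I, 3 of 4 of complex II, 7 of 8 of complex III, 12 of 13 of complex IV and 17 of 18 of complex V were higher, and none lower. Complex IV had the largest median, at 1.05. Summed over nuclear members, the level was 7679 and 7197 CPM in TH2 cells and 5062 and 5060 CPM in naive cells.

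Cox5a, a nuclear subunit of cytochrome oxidase, had 153.8 and 149.7 CPM in TH2 cells, against 40.5 and 43.19 CPM in naive cells (log2 ratio 1.86 ± 0.07, adjusted p = 1.45e-09). Its partner Cox5b had 136.4 and 131.5 CPM in TH2 cells, against 53.28 and 59.45 CPM in naive cells (1.25 ± 0.08, adjusted p = 6.45e-08). Sdhd, a membrane anchor of complex II, had 87.36 and 74.51 CPM in TH2 cells, against 29.13 and 30.11 CPM in naive cells (1.45 ± 0.09, adjusted p = 5.51e-08). These steps exceeded the difference between replicates many times over. The complex I subunits Ndufa1 (1.38), Ndufv3 (1.32), Ndufb9 (1.26) and Ndufa11 (1.13) and the complex IV subunit Cox8a (1.12) were also higher, each with an adjusted p at or under 2.01e-07. Lower in TH2 cells were Cox7a2l, with 225.2 and 202.4 CPM against 291.2 and 293.6 CPM in naive cells (-0.45 ± 0.08, adjusted p = 0.000294), and the complex I assembly factor Ndufaf4, with 10.26 and 8.951 CPM against 14.79 and 15.0 CPM in naive cells (-0.63 ± 0.12, adjusted p = 0.000582).

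TFH cells also stood above naive cells, by less. In TFH cells 43 nuclear genes were higher and 4 lower than in naive cells, beside 29.6% of all genes higher and 27.6% lower, with a median log2 ratio of 0.24. Without naive replicate 1 the 47 calls became 31. The summed level was 5966 and 5783 CPM in TFH cells and 5062 and 5060 CPM in naive cells. Atp5g3 had 183.8 and 170.2 CPM in TFH cells, against 99.31 and 94.63 CPM in naive cells (0.87 ± 0.07, adjusted p = 1.61e-06). Ndufa4, a subunit now placed in complex IV, had 52.73 and 49.5 CPM in TFH cells, against 26.62 and 28.97 CPM in naive cells (0.88 ± 0.09, adjusted p = 8.32e-06). Cox8a (0.90), the complex I subunits Ndufb8 (0.85), Ndufa1 (0.81), Ndufb9 (0.74), Ndufb11 (0.72) and Ndufs8 (0.69) rose too. Cox7a2l was the member that fell most clearly, to 145.0 and 146.6 CPM in TFH cells, against 291.2 and 293.6 CPM in naive cells (-1.0 ± 0.08, adjusted p = 8.02e-07). The assembly factors Ndufaf4 (-0.78) and Ndufaf5 (-0.73) and the complex I subunit Ndufa10 (-0.25) fell as well, though Ndufa10 was not called without naive replicate 2 (adjusted p = 0.0586) or without TFH replicate 2 (adjusted p = 0.222).

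Set directly against TH2 cells, TFH cells had 4 nuclear genes higher and 55 lower of 88, beside 30.8% of all genes higher and 30.9% lower. The median was -0.39, against -0.01 over all genes. Lower in TFH cells were 22 of 36 subunits of complex I, 2 of 4 of complex II, 5 of 8 of complex III, 11 of 13 of complex IV and 12 of 18 of complex V. Cox5a had 57.12 and 55.18 CPM in TFH cells, against 153.8 and 149.7 CPM in TH2 cells (-1.43 ± 0.07, adjusted p = 1.34e-08). Ndufa10 had 48.45 and 42.94 CPM in TFH cells, against 106.8 and 103.0 CPM in TH2 cells (-1.20 ± 0.08, adjusted p = 1.28e-07). Uqcrfs1, the iron-sulfur protein of complex III, had 46.47 and 44.92 CPM in TFH cells, against 89.71 and 87.5 CPM in TH2 cells (-0.95 ± 0.07, adjusted p = 4.93e-07). For these 3 genes TFH cells were near the naive level, which was 40.5 and 43.19 CPM for Cox5a, 54.48 and 54.67 CPM for Ndufa10 and 47.3 and 50.78 CPM for Uqcrfs1.

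Sdhd (-1.27), Atp5l, the dimer-forming subunit g of ATP synthase (-1.12), Ndufv3 (-0.90), Cox5b (-0.76) and Atp5o, the subunit that ties the stator to the ATP synthase head (-0.76), were lower in TFH cells too. Atp5o has a second gene entry that overlaps it and holds 8215 RNA-seq counts, so its level is uncertain to that degree. Higher in TFH cells were Ndufa4 (0.50 ± 0.09, adjusted p = 0.000509), the complex III core protein Uqcrc1 (0.35, adjusted p = 0.012), Atp5g3 (0.24 ± 0.07, adjusted p = 0.0127) and the complex II flavoprotein Sdha (0.19, adjusted p = 0.0433). The last 3 lost their call without TFH replicate 1, and Uqcrc1 and Sdha also without TFH replicate 2 (adjusted p = 0.0565 and 0.168). Sdha was also not called with RLE size factors, with DESeq2 or with only the groups compared (adjusted p = 0.0544 to 0.0962). Cox6b2, the testis isoform of a complex IV subunit, was at 0.22 and 0.16 CPM in TFH cells and at 1.65 and 2.37 CPM in TH2 cells (-3.34 ± 0.50, adjusted p = 0.00012), a large ratio at a very low level. Ddx3y separated these TFH libraries from the TH2 and naive libraries, which carry Xist, and sex therefore cannot be told apart from cell type here. Summed B cell markers stood at 270.2 to 276.0 CPM in TFH cells and 157.8 to 173.2 CPM in TH2 cells, where Ms4a1 was at 0 (4 of 6 higher and 1 lower in TFH cells). Myeloid markers stood at 47.8 to 53.5 CPM in TFH cells and 179.5 to 189.3 CPM in TH2 cells (6 of 9 higher and 2 lower), with Lyz2 and C1qa at 0 in TH2 cells. Their part in the result was not tested.

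**Figure D5:**
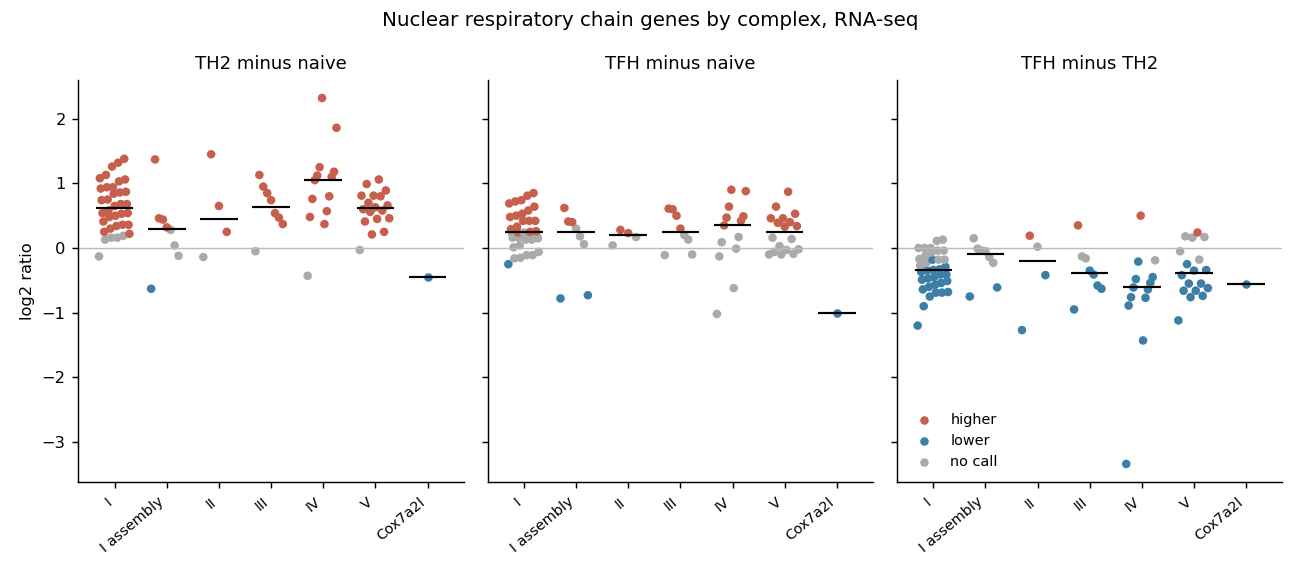
Log2 ratios of 88 nuclear genes by complex in 3 RNA-seq comparisons (a point for each gene, a line at the median, colour by call at adjusted p under 0.05). Complex IV has a median of 1.05 in TH2 minus naive and -0.61 in TFH minus TH2, and Cox7a2l lies below 0 in all 3.

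The lone libraries of IL-4BacTg x OTII Tg mice have no replicate, and their TFH markers go against their labels. The summed nuclear level was 7990 CPM in the library labelled TFH2 and 9372 CPM in the library labelled TH2. Cox5a was at 145.0 CPM in the library labelled TFH2 and 105.6 CPM in the library labelled TH2. Cox7a2l was at 398.0 CPM and 232.2 CPM, and Ndufa4 at 53.76 and 108.0 CPM, in the same order. Which library was higher thus differed by gene, and no difference between cell types is drawn from this pair.

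The assays did not give the same picture of TFH against TH2 cells. Of the 55 nuclear genes lower in RNA-seq, 53 were tested in QuantSeq, and there 32 had a positive and 21 a negative log2 ratio, with a median of 0.12. The 4 genes higher in RNA-seq had 3 positive and 1 negative ratio in QuantSeq (median 0.33). The 29 genes without a call in RNA-seq had 16 positive and 12 negative ratios (median 0.10). In QuantSeq the 53 genes thus looked much like the uncalled ones. The groups of that name differ in genotype (TH2 from IL-4BacTg mice in RNA-seq and from IL-4BacTg x OTII Tg mice in QuantSeq), gate (CXCR5hi alone in RNA-seq) and sex, beside the kit. Cox5a and Sdhd, which led the RNA-seq differences, were at 2.437 to 35.87 CPM and at most 3.922 CPM in QuantSeq. QuantSeq also recovered only 7% of simulated 2-fold changes between TFH and TH2 cells, against 88% in RNA-seq.

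Among other mitochondrial genes in RNA-seq, mitochondrial ribosomal proteins, which translate the mt- mRNAs, were higher in TH2 than in naive cells for 52 of 78 and lower for 8 (median 0.44), where 33.9% of all genes were higher and 32.0% lower. Carriers and partners of the chain, such as the phosphate carrier Slc25a3, were higher for 10 of 14 and lower for 2 (median 0.71). Genes that copy and transcribe mitochondrial DNA or process its RNA, such as Tfam and Polrmt, were higher for 3 and lower for 11 of 20 (median -0.38). Of 16 tricarboxylic acid cycle genes 8 were higher and 4 lower, of 33 assembly factors outside the symbol rule 10 and 2, and of 8 tested regulators of biogenesis 0 and 3. The shares for assembly factors lay below those of all genes. In TFH against naive cells, where 29.6% of all genes were higher and 27.6% lower, 28 of 78 mitochondrial ribosomal proteins were higher and 12 lower, and of 20 genes of mitochondrial DNA expression 2 were higher and 9 lower. In TFH against TH2 cells, where 30.8% of all genes were higher and 30.9% lower, the ribosomal proteins were higher for 9 and lower for 38 (median -0.24), and the genes of mitochondrial DNA expression higher for 8 and lower for 4.

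In QuantSeq these lists held few calls. Between TFH and TH2 cells Slc25a3 was higher (0.79 ± 0.24, adjusted p = 0.0309), while the elongation factor of mitochondrial RNA polymerase Tefm, the ribosomal protein Mrpl44 and the growth regulator Myc were lower. Between TFH2 and TH2 cells the cycle enzyme Suclg1 was higher (1.28, adjusted p = 0.0452) and Myc lower. No other gene of these lists was called in those comparisons.

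Promoters of the nuclear members were searched for motifs, in 300 bases around the gene start from RefSeq (GRCm38.p6), which held 74 of 94 members. The NRF1 motif (GCGCA, any base, GCGC) stood in 19 members (25.7%), against 7.17% of 17492 promoters of all genes. The GABP motif CCGGAAG stood in 18 (24.3%), against 12.95% of all. The YY1 motif AAGATGGC stood in 10 (13.5%), against 3.57% of all. Both strands were searched, and matches of different motifs shared bases in 0 members. A match describes the letters only. The promoters of Sdhd, Cox8a and Ndufa11 are shown, as those of smallest adjusted p in TH2 against naive cells that hold a match, with matches on either strand in capitals. They lie at chr9:50603800-50604099 (minus strand), chr19:7217567-7217866 (minus strand) and chr17:56717512-56717811 (plus strand).
Sdhd: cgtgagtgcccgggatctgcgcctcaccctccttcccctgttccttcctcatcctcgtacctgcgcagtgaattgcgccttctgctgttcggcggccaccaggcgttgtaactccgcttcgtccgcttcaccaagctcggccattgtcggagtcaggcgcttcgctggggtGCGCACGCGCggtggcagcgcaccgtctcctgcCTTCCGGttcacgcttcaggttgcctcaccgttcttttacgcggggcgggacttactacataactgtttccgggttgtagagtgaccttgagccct
Cox8a: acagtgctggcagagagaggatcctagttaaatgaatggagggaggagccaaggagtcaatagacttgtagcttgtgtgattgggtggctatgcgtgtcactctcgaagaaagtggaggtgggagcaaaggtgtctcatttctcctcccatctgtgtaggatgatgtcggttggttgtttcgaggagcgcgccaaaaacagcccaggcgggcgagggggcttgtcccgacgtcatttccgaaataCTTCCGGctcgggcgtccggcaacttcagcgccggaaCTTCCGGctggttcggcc
Ndufa11: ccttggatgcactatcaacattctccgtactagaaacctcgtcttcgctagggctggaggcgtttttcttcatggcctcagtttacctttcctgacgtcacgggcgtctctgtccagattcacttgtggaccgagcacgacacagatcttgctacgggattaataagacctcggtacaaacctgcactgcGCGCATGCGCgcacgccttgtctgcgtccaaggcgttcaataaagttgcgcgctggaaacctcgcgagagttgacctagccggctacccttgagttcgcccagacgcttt

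Likeness across the 22 QuantSeq libraries was described by Spearman correlation over 6370 genes, with members left out. The summed nuclear level was most like Sem1 (0.843), Pla2g16 (0.842), Cd200 (0.762), Srgn (0.756) and Smdt1 (0.749). The summed mt- level was most like Tceanc2 (0.705), Sertad2 (0.702), the mt-Nd3 copy Gm28438 (0.677), Gtf3c2 (0.668) and Polr2i (0.663). No gene stood in both lists. The libraries share groups and depth, so these values describe this set of libraries only.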

How the data were processed

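Per the labels, total RNA of sorted spleen CD4 T cells was made into libraries with the NEB Next Ultra kit (RNA-seq, 8 libraries) or the Lexogen 3' QuantSeq kit (22 libraries). Tools named in the submitters' processing notes are featureCounts 1.6.0, STAR 2.7.0c and Bowtie 0.12.2, with the builds GRCm38.p6, mm10 and mm9. Their roles, and whether counting used strand, are not stated in the labels. The deposited values are whole counts, per gene in QuantSeq and per transcript in RNA-seq.

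Names came from GENCODE M21 (GRCm38). Of 55573 QuantSeq identifiers, 93 had no name (0.0062% of counts). Of 95883 transcripts, 82946 were named (the rest held 14.66% of counts), and a gene's most counted transcript stood for it. The test was that of edgeR 4.0.16 under R 4.3.3 (TMM factors, filterByExpr with minimum count 10 and minimum total 15, robust quasi-likelihood test, 2-sided), in 1 fit per assay: 14380 genes, 22 libraries, 9 groups and 13 residual degrees of freedom in QuantSeq, and 17028 genes, 8 libraries, 5 groups and 3 residual degrees of freedom in RNA-seq. P-values were adjusted by Benjamini-Hochberg over all genes of a comparison, and a call is an adjusted p under 0.05. CPM use the filtered library size times the TMM factor (0.93 to 1.08 and 0.95 to 1.10). Contrasts over gates are means of group coefficients. The 37 mt rows were left out of the RNA-seq fit. Copies were found by BLAST of whole mt- transcripts, or the last 300 bases of nuclear ones, against GENCODE transcripts (at least 95% identity over 100 bases).

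The labels name no animal, batch or replicate number, so samples of a group were numbered in accession order, and p-values reflect only the variation among libraries of a group, whether from separate mice or repeats. Between replicates, chi-square divided by its degrees of freedom ranged over 35.08 to 56.05 in 18 QuantSeq pairs and 2.65 to 21.38 in 3 RNA-seq pairs, so replicates differed by more than counting noise, which does not tell separate mice from repeated preparations. On simulated data, 4-fold changes were recovered for 30% of genes in TFH minus TH2, 31% in TFH2 minus TH2 and 41% in TFH2 minus TFH in QuantSeq, and for 97% in TFH minus TH2 in RNA-seq. The changed genes were drawn from the tested genes above a minimum mean count, not from the members, so the rates do not cover genes of lower count.

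The members and gene lists were chosen with earlier results of these data known. Genes named with values are the mt- members, per comparison the 8 called members of smallest adjusted p in each direction, the most abundant member per complex, tissue isoforms and Atpif1. Other genes were chosen after their values were seen: Atp5g2, Ndufs5, Ndufs3, mt-Rnr2, the members given for the lone libraries, and the called genes of the pathway lists. Alternatives were RLE factors, no scaling factor, no filter, DESeq2 1.42.0, only the groups compared, each library left out and, in RNA-seq, sums over transcripts. Chosen after seeing the data were nuclear copies added, TFH2 without CXCR5hi, and TH2 libraries matched on Xist or Ddx3y. The level of 1 marker of another cell type is not reported here.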

Additional observations from a re-analysis of the deposited data

Results flagged for a closer look

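The complex I assembly factor Ndufaf5 stood at 10.6 CPM in TH2 replicate 3 of QuantSeq and at 0 in the other 3 TH2 libraries. This was the 1 member of 41 checked in that group in which a library lay far from the others. Chance flags about 1 in 20.

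Signal also lay outside the rows and libraries of the main comparisons. The lone RNA-seq libraries of IL-4BacTg x OTII Tg mice held 458256 counts (labelled TFH2) and 645963 counts (labelled TH2) on mt- rows that were at 0 in the other 6 libraries. In QuantSeq, chromosome 1 pseudogene rows, which entered the comparisons only where copies were added to the mt- rows, held 958110 counts (Gm29216, copy of mt-Co1), 439555 counts (Gm28661, copy of mt-Co2), 672685 counts (Gm10925, copy of mt-Atp6), 434490 counts (Gm28437, copy of mt-Co3) and 51491 counts (Gm28438, copy of mt-Nd3).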

How the results depend on the processing

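No paired analysis was possible because the labels give no replicate numbers, and the sample numbers in the titles occur once each. Counts of called members are nuclear unless mt- is said. TFH minus TH2 in QuantSeq gave 3, with 5 by DESeq2, 0 to 3 with a library left out and 0 against the Xist-bearing TH2 libraries. Its mt- count was 0, with 1 without the filter, 0 to 2 with a library left out and 4 against the Xist-bearing TH2 libraries. TFH2 minus TH2 gave 2, with 7 by DESeq2, 1 with only the groups compared, 1 to 3 with a library left out, 1 with copies added, 0 without CXCR5hi and 4 against the Ddx3y-bearing TH2 libraries. Its mt- count was 3, with 2 to 3 with a library left out and 1 against the Ddx3y-bearing TH2 libraries. TFH2 minus TFH gave 1, with 0 by DESeq2, 0 to 1 with a library left out and 0 without CXCR5hi. Its mt- count was 0, with 1 with no scaling factor, 2 without the filter, 1 by DESeq2, 1 with only the groups compared and 0 to 2 with a library left out. The mt- count was 0 in Bcl6KO minus TH2 (3 against the Xist-bearing libraries) and 0 in Il4KO minus TH2 (3 without the filter, 0 to 3 with a library left out). In RNA-seq, 76 in TH2 minus naive became 63 to 79 with a library left out, 47 in TFH minus naive 31 to 41, and 59 in TFH minus TH2 49 to 69. The cause was not tested, but each such fit has fewer libraries.

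The mean log2 ratio of mt- to nuclear sums, as a main value and then with the top mt- gene left out, as a difference of medians and with copies added, was 1.43, 1.01, 4.59 and 2.26 in TFH2 lo, 1.6, 0.95, 4.24 and 2.34 in int and 1.62, 1.15, 4.49 and 2.42 in hi. In TFH it was 1.62, 1.07, 4.29 and 2.54 in lo, 1.55, 0.9, 4.11 and 2.37 in int and 1.56, 0.91, 4.04 and 2.35 in hi. It was 1.76, 1.1, 5.09 and 2.57 in Bcl6KO, 1.99, 1.45, 5.3 and 2.97 in Il4KO and 1.51, 0.91, 4.74 and 2.42 in TH2.

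Of 43 named calls, 30 held under every alternative run, none of them among the 9 in QuantSeq, and none reversed. QuantSeq depth limits low members, and RNA-seq replicates vary too little to speak for other mice.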
